A study of Mus musculus with 16 samples.

Results

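The Paneth cell genes described here are 9 genes found by name in the deposited count table, which holds 54532 genes: Lyz1, Ang4, Mmp7, Itln1 and the alpha-defensins Defa17, Defa21, Defa22, Defa24 and Defa30. They were measured by RNA-sequencing in 16 cultures of mouse jejunal enteroids, which are epithelial cultures grown from intestinal crypts, in 4 groups of 4. MYO5BΔIEC enteroids (labelled iKO) carried Vil1-CreERT2 and a floxed Myo5b on each allele, and MYO5B(G519R) enteroids (labelled G519R) carried Vil1-CreERT2 with a floxed and a G519R allele. Both had Cre recombinase, which the Vil1 promoter drives in the epithelium, induced after passage by 24 h with 4-OH-tamoxifen at 1 µM. All 16 cultures, controls included, are labelled as differentiated enteroids. The methods describe a move, after this step, to a differentiation medium from which Wnt ligands and EGF had been withdrawn. MYO5BΔIEC enteroids received vehicle or 100 nM Compound-1, a synthetic agonist of LPAR5, for 2 days. The methods describe the controls as Vil1-CreERT2 flox/flox cultures given vehicle in place of 4-OH-tamoxifen, and a figure legend describes healthy littermates. The sample records name the drug for MYO5BΔIEC and MYO5B(G519R) enteroids only. A direct effect of 4-OH-tamoxifen and the functional loss of MYO5B therefore cannot be told apart in a comparison with control. A figure legend describes the cultures of each group as coming from separate mice, and the labels do not tie culture numbers to mice.

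Paneth cells sit at the base of the small intestinal crypts and fill large apical granules with antimicrobial proteins, which they release into the crypt lumen. Their alpha-defensins are made as inactive precursors that the protease MMP7 cuts in the mouse, and their maturation from progenitors depends on Wnt signaling and on the transcription factors ATOH1, GFI1, SOX9 and XBP1. MYO5B, the motor protein deleted in MYO5BΔIEC and mutant in MYO5B(G519R) enteroids, moves recycling endosomes to the apical membrane of epithelial cells.

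All 9 genes were detected in all 16 cultures and passed the filter on low counts in every comparison. Together they took 0.344% to 0.728% of the counts of a library, of 27804968 to 40101729 counts each. Lyz2, the lysozyme gene of macrophages and a close paralog of Lyz1, had 1 to 21 counts per library, and Ptprc, which encodes the leukocyte marker CD45, had 0 to 6. Myo5b itself was at 159.8, 229.7, 191 and 176 CPM (counts scaled to library size with TMM factors) in control cultures 1 to 4 and at 135, 109, 169.6 and 101 CPM in MYO5BΔIEC cultures. It was at 139, 153, 173 and 136 CPM in MYO5B(G519R) cultures and at 149, 106, 87.2 and 101 CPM with Compound-1. Each model overlapped control, all 4 cultures with Compound-1 lay below the lowest control, and neither model passed the threshold of 0.05 against control, with log2 fold changes of -0.55 (edgeR adjusted p = 0.0503) and -0.33 (edgeR adjusted p = 0.109). These counts cover the whole gene and do not read the deleted exon or the G519R allele on their own. Control culture 1 stood apart from the other 3 controls, as the values below show. The calls of the 9 genes and of the other alpha-defensin rows against control are given with and without it. Those of the other lists are mostly given with all 4 controls only.

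Per unit of gene length, Defa24 was the most abundant of the genes in every group, at a mean of 3480.1 ± 1647 FPKM (counts scaled to gene length and library size; SD, n = 4) in control enteroids. Lyz1 followed with 1755 ± 485 FPKM, then Itln1 with 1466 ± 437, Defa30 with 886 ± 310.3 and Ang4 with 478 ± 141. Defa17 at 322 ± 127 FPKM, Mmp7 at 186 ± 57.2, Defa22 at 107 ± 51.1 and Defa21 at 94.9 ± 39.4 were the lowest. In control enteroids the ranges of all neighbours in this order overlapped. In MYO5B(G519R) enteroids, whose cultures lay closer together, the order was the same, and the neighbours that overlapped were Lyz1 with Itln1, Itln1 with Defa30, and Defa22 with Defa21.

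Lyz1 (ENSMUSG00000069515, GRCm38 chromosome 10, 117287797 to 117292868) encodes the lysozyme of Paneth cell granules, an enzyme that cuts bacterial cell walls. It was at 1485, 3064, 2320.0 and 2259 CPM in control cultures 1 to 4, at 1171, 1523, 1643 and 1078 CPM in MYO5BΔIEC and at 1139.7, 1097, 1635 and 1039 CPM in MYO5B(G519R) cultures. Controls 2 to 4 lay above all 8 cultures of the 2 models, and control 1 lay among them. By the edgeR quasi-likelihood test Lyz1 was lower in MYO5BΔIEC enteroids, at -0.75 on the log2 scale (SE 0.24, quasi-likelihood adjusted p = 0.0401) and in MYO5B(G519R) enteroids with -0.89 (SE 0.24, quasi-likelihood adjusted p = 0.0209). Both comparisons use the same 4 control cultures. The exact two-sided permutation test on log2 CPM alone, which can reach 0.0286 with 4 against 4, gave p = 0.0857 and p = 0.0571.

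Itln1 (ENSMUSG00000038209, chromosome 1, 171518122 to 171535294) encodes intelectin-1, a lectin of Paneth and goblet cells that binds microbial sugars. It was at 936 CPM in control culture 1 and at 2026, 1925 and 2006 CPM in controls 2 to 4. MYO5BΔIEC cultures were at 935, 1073, 984 and 865 CPM and MYO5B(G519R) cultures at 791, 757, 978 and 1011. The 3 high controls were about level with each other and above every other culture, while control 1 lay within the range of the 2 models. Itln1 fell by 0.83 on the log2 scale in MYO5BΔIEC (SE 0.24, quasi-likelihood adjusted p = 0.0272) and by 0.96 in MYO5B(G519R) enteroids (SE 0.24, quasi-likelihood adjusted p = 0.0175).

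Ang4 (ENSMUSG00000060615, chromosome 14, 51763878 to 51773590), an angiogenin ribonuclease with antimicrobial activity that Paneth cells secrete, was at 194, 425, 397 and 379 CPM in control and at 241, 394, 498 and 301 CPM in MYO5BΔIEC cultures. The 2 groups covered nearly the same range, and the log2 fold change was 0.04 (SE 0.28, quasi-likelihood adjusted p = 0.928). In MYO5B(G519R) cultures it was at 215, 220.1, 355 and 183 CPM, with a log2 fold change of -0.52 against control (SE 0.27, quasi-likelihood adjusted p = 0.187). Mmp7 (ENSMUSG00000018623, chromosome 9, 7692090 to 7699585), the protease that activates alpha-defensins, overlaps AV064505 on the other strand, and strand use in the counting was not given in the sources used here. It was at 114, 205, 244 and 257 CPM in control, at 131, 185, 182 and 145 CPM in MYO5BΔIEC and at 136, 117, 173 and 118 CPM in MYO5B(G519R) cultures. Its log2 fold change was -0.34 (SE 0.24, quasi-likelihood adjusted p = 0.319) in MYO5BΔIEC and -0.59 (SE 0.24, quasi-likelihood adjusted p = 0.0971) in MYO5B(G519R) enteroids, neither past the threshold.

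**Figure D1:**
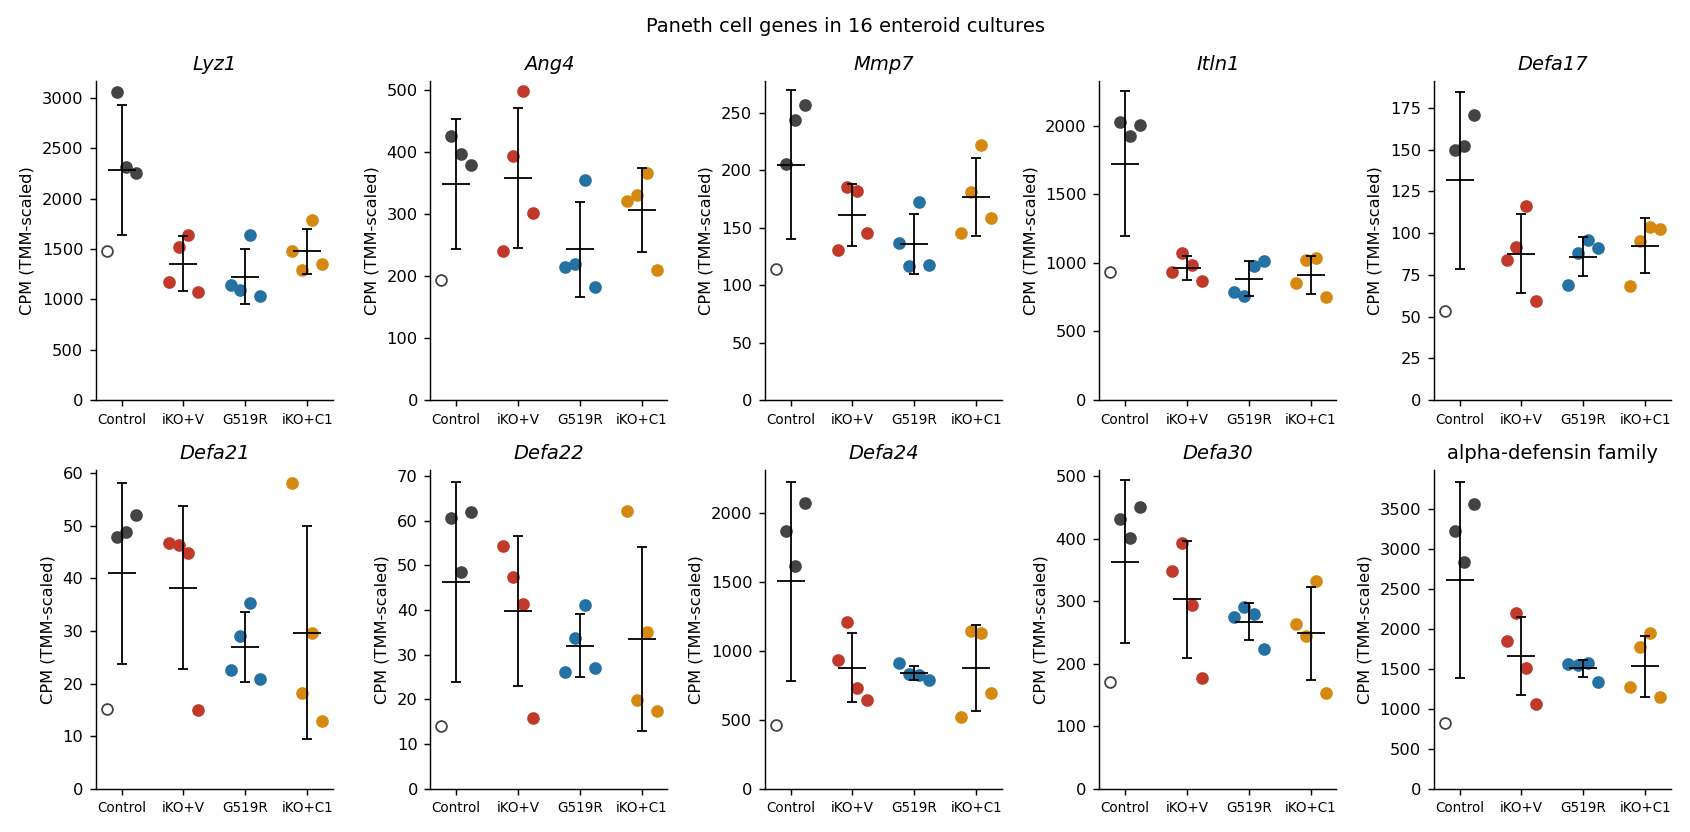
Levels of the 9 Paneth cell genes and of the summed alpha-defensin family in each of 16 cultures, in TMM-scaled CPM on axes that start at 0. Points are cultures 1 to 4 from left to right, with control culture 1 drawn open, and bars are the mean and SD of 4 cultures (iKO+V, MYO5BΔIEC with vehicle; iKO+C1, with Compound-1). Control culture 1 is the lowest control for every gene, at 936 against 1925 to 2026 CPM for Itln1.

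The 5 alpha-defensin genes lie in a cluster on chromosome 8 and encode the precursors of small cationic peptides that kill bacteria. Their coding sequences are shown because near-identical copies decide how far reads can be assigned to a single gene. Each has 282 bases in the GENCODE M21 transcript, and capitals mark the bases that differ from Defa24, the most abundant copy.
Defa24: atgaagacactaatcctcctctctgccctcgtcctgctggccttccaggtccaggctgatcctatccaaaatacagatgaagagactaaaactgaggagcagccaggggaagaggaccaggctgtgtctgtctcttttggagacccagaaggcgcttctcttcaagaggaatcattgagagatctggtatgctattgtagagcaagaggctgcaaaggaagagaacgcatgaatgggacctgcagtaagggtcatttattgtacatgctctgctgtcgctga
Defa30: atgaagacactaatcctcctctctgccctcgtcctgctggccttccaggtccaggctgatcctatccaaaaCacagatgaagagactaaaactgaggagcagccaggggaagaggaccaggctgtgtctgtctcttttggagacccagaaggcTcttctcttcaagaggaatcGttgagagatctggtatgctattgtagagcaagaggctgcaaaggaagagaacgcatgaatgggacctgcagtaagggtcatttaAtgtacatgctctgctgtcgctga
Defa17: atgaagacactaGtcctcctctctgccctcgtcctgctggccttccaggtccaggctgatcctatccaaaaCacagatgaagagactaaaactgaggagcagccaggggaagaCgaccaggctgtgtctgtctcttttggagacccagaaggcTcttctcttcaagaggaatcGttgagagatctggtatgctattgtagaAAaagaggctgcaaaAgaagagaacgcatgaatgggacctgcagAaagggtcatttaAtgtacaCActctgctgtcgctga
Defa22: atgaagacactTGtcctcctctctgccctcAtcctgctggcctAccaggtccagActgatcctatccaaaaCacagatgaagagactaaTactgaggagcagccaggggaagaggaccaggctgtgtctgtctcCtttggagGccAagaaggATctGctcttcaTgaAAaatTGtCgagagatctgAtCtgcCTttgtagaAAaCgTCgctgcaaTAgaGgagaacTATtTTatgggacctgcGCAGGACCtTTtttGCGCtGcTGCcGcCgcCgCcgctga
Defa21: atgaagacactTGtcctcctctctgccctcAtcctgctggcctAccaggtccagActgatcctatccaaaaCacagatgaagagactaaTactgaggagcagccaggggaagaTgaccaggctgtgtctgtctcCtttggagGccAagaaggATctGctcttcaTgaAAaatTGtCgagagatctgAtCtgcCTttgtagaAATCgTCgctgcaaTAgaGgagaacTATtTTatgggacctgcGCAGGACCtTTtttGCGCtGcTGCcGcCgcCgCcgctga

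By these sequences the genes formed 2 groups. Defa30 differed from Defa24 at 4 bases and Defa17 from Defa24 at 12, an identity of 98.58% and 95.74%. Defa21 and Defa22 differed from each other at 2 bases and from Defa24 at 60 and 58. The capitals of Defa21 and Defa22 are densest in the second part of the sequence, and the first part is nearly shared by all 5 genes. Of the 100-base stretches of each transcript, 9.396% were found in no other gene for Defa17, 59.56% for Defa21, 59.69% for Defa22, 99.67% for Defa30 and 100% for Defa24. The stretches of Defa17 were shared almost entirely with Defa3, and those of Defa21 and Defa22 with each other. How the counting treated reads with several matches was not given in the sources used here, so the split between Defa21 and Defa22 and the level of Defa17 are uncertain, and the family is also read as a sum.

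Defa24 (ENSMUSG00000064213, chromosome 8, 21734494 to 21735471) was at 462, 1871, 1613 and 2075 CPM in control, at 932, 1208, 731 and 644 CPM in MYO5BΔIEC and at 909.9, 835, 828 and 786 CPM in MYO5B(G519R) cultures. The 4 MYO5B(G519R) cultures were close together, the 3 high controls lay above all of them, and control 1 lay below all of them. The log2 fold change was -0.77 (SE 0.39, quasi-likelihood adjusted p = 0.172) in MYO5BΔIEC and -0.84 (SE 0.37, quasi-likelihood adjusted p = 0.117) in MYO5B(G519R) enteroids.

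Defa30 (ENSMUSG00000074444, 21134642 to 21135598) was at 171, 431, 401 and 451 CPM in control, at 349, 393, 294 and 177 CPM in MYO5BΔIEC and at 275, 291, 280.2 and 224 CPM in MYO5B(G519R) cultures. Defa17 (ENSMUSG00000060208, 21655780 to 21656735) was at 53.6, 150.0, 152 and 171 CPM in control, at 84.1, 91.6, 116 and 59.1 CPM in MYO5BΔIEC and at 68.9, 88.0, 95.8 and 91.4 CPM in MYO5B(G519R) cultures. Both genes had the same shape as Defa24, with control 1 the lowest of the 16 or, for Defa30, the second lowest. Their log2 fold changes in MYO5BΔIEC and MYO5B(G519R) enteroids were -0.25 and -0.44 for Defa30 (edgeR adjusted p = 0.598 and 0.246) and -0.58 and -0.61 for Defa17 (edgeR adjusted p = 0.208 and 0.158).

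Defa21 (ENSMUSG00000074447, 21025545 to 21026516) was at 15.2, 47.8, 48.8 and 52.0 CPM in control, at 46.6, 46.4, 44.9 and 15.0 CPM in MYO5BΔIEC and at 22.5, 29.0, 35.4 and 20.8 CPM in MYO5B(G519R) cultures. Defa22 (ENSMUSG00000074443, 21162277 to 21163249) was at 14.0, 60.5, 48.6 and 62.0 CPM, at 54.4, 47.5, 41.4 and 15.8 CPM and at 26.2, 33.8, 41.2 and 27.1 CPM in the same cultures. These 2 genes followed each other from culture to culture, with 0.92 to 1.36 counts of Defa22 for each count of Defa21. MYO5BΔIEC culture 4 was as low as control culture 1 for both, and the other 3 MYO5BΔIEC cultures were near the 3 high controls. Their log2 fold changes in MYO5BΔIEC were -0.09 and -0.21 (edgeR adjusted p = 0.895 and 0.767), and in MYO5B(G519R) enteroids -0.60 and -0.53 (edgeR adjusted p = 0.217 and 0.335).

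The table holds 45 rows of the alpha-defensin family, all on chromosome 8, of which 38 had counts. Summed over these rows, the family was at 824, 3217, 2834 and 3562 CPM in control, at 1848, 2202, 1514 and 1064 CPM in MYO5BΔIEC, and at 1555, 1541, 1578 and 1338 CPM in MYO5B(G519R) cultures. Control 1 had the lowest sum of all 16 cultures, and controls 2 to 4 had the 3 highest. Tested as 1 feature, the family had a log2 fold change of -0.65 (SE 0.40, quasi-likelihood adjusted p = 0.249) in MYO5BΔIEC and -0.79 (SE 0.36, quasi-likelihood adjusted p = 0.133) in MYO5B(G519R) enteroids. The 5 named defensins carried 77.03% to 86.88% of the family's counts. Summed alone they were at 716, 2559.9, 2263 and 2810.4 CPM in control, at 1466, 1787, 1227 and 911 CPM in MYO5BΔIEC and at 1302, 1276, 1280.3 and 1149.8 CPM in MYO5B(G519R) cultures.

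The makeup of the family was also compared. Defa24 took 56.08% to 58.25% of the family's counts in the 4 controls, control 1 included, 48.29% to 60.57% in MYO5BΔIEC and 52.45% to 58.76% in MYO5B(G519R) cultures. Defa30 took 12.66% to 20.82% over the 16 cultures and Defa17 4.16% to 8.94%. Compound-1-treated culture 1 differed most from the other 15 in its makeup, with 41.32% of its family counts on Defa24 and 9.50% on Defa21 and Defa22 together, against 2.15% to 3.33% on that pair in the other 3 treated cultures.

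**Figure D2:**
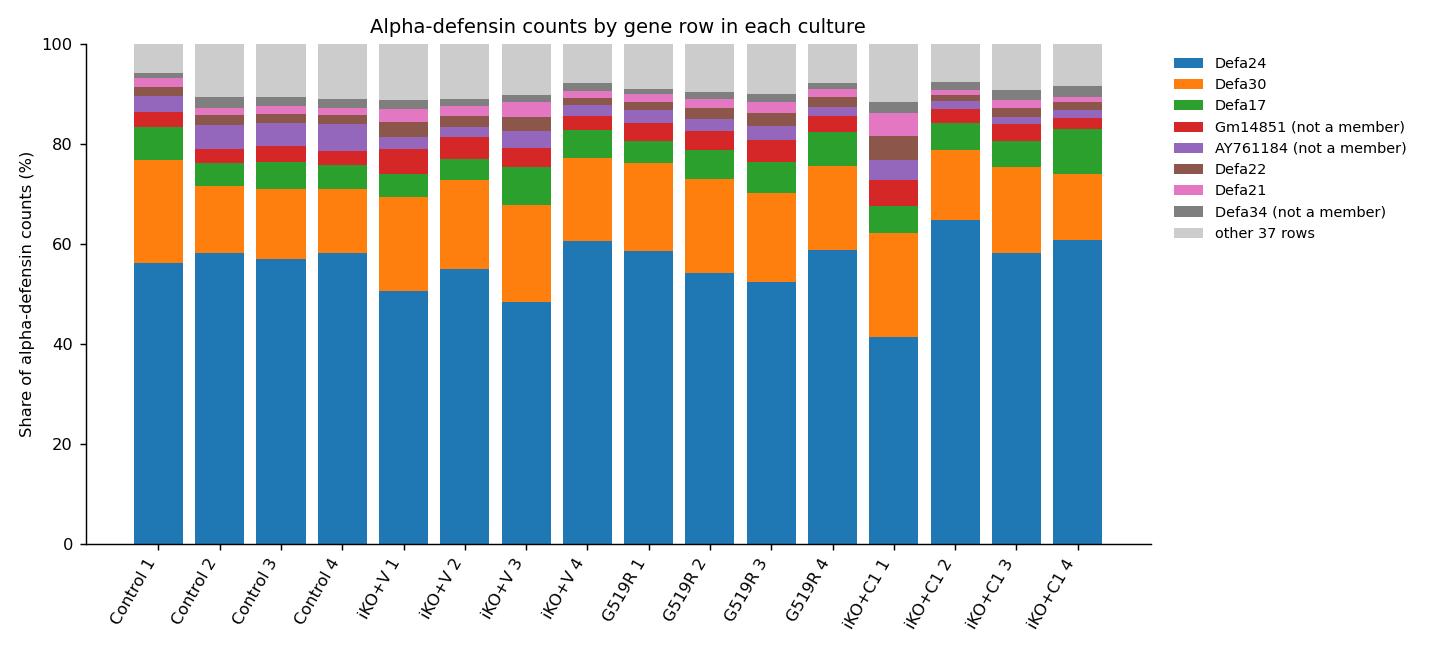
Share of alpha-defensin counts (%) that fell on each gene row in each of the 16 cultures, with the 8 rows of highest total drawn in colour and the other 37 rows in grey. Defa24 takes 41.32% to 64.85% of the counts, and Compound-1-treated culture 1 has the smallest Defa24 share.

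The 250 bases before the start of 7 of the 9 genes were in the RefSeq promoter table (GRCm38.p6), and were read because Wnt signaling, through TCF factors, is part of how Paneth cells mature. The TCF motif was searched as CTTTGAT on both strands, that is also as ATCAAAG, and it is in capitals. Defa21 and Defa22 have the same sequence over this window, so it is printed once, from chr8:21025295-21025544 on the plus strand, beside that of Defa30 from chr8:21134400-21134649 on the plus strand.
Defa21: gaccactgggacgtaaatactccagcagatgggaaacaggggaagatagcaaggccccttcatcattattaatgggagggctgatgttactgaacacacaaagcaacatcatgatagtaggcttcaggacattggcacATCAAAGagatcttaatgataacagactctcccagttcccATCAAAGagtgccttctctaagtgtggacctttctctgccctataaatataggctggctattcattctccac
Defa30: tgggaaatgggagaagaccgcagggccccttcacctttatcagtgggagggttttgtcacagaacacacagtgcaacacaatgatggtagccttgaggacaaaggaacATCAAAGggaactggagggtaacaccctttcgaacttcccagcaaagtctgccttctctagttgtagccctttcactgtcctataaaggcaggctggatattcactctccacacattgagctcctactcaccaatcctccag

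The motif began 112 and 72 bases before the start of Defa21 and of Defa22, and 142 bases before the RefSeq start of Defa30. The Defa30 window ends at 21134649, inside the gene as counted here, which starts at 21134642. The motif was in 13 of the 16 alpha-defensin windows of the table, and in 3.205% of all 32851 windows. The alpha-defensin windows belong to related copies of 1 gene family, some with the same sequence, and cannot be read as 16 independent cases. The windows of Lyz1, Itln1 and Ang4 did not hold these letters, nor did the window before the Mmp7 start given above. A second Mmp7 window, before a later RefSeq start and inside the gene as counted here, held it once. These matches describe the sequence, and binding was not measured.

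Of the 9 genes, 2 (Lyz1 and Itln1) passed the threshold in MYO5BΔIEC against control, both lower, where 13.8% of the 17951 genes tested were called lower. In MYO5B(G519R) against control the same 2 genes passed, both lower, where 13.7% of 17829 were called lower. The fold changes of 8 of the 9 were below 0 in MYO5BΔIEC, Ang4 being the other, and of all 9 in MYO5B(G519R) enteroids, with a median of -0.34 and -0.60 beside -0.01 and -0.05 over all genes tested. In neither comparison did the 4 cultures of a group lie wholly below the 4 controls for any of the 9, which held for 13.8% of the genes tested in each comparison. RNA from a whole culture cannot tell fewer Paneth cells apart from less of these transcripts in each cell.

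How many of the 9 genes passed depended on control culture 1. Without it, a choice made after its values were seen, 5 of the 9 genes (Lyz1, Itln1, Mmp7, Defa17 and Defa24) passed as lower in MYO5BΔIEC, where 20.8% of the genes tested did. All 9 passed as lower in MYO5B(G519R) enteroids, where 22.1% did. Defa24 then had a log2 fold change of -1.07 (edgeR adjusted p = 0.00203) and -1.11 (edgeR adjusted p = 7.25e-05), and the family as 1 feature -0.95 (edgeR adjusted p = 0.00539) and -1.06 (edgeR adjusted p = 9.48e-05). In MYO5BΔIEC, Lyz1 kept its call without MYO5BΔIEC culture 3 (edgeR adjusted p = 0.0448) or control 1 (0.00235) and lost it without any 1 of the other 6 cultures (0.0706 to 0.12). Itln1 lost its call there without any 1 of the 7 cultures other than control 1 (edgeR adjusted p = 0.0555 to 0.0784). In MYO5B(G519R), leaving out 1 culture ended the call of Lyz1 in 5 of 8 cases (edgeR adjusted p = 0.054 to 0.0666) and that of Itln1 in 5 of 8 (0.0504 to 0.059).

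Control culture 1 also differed in ways that are not particular to these genes. Levels in controls 2 to 4 rose as genes became shorter, and those of control 1 did not. For a gene of 400 bases, the length of the alpha-defensin transcripts, the trend over 13545 genes, on the gene lengths of the deposited table, stood at 0.76, 0.78 and 0.99 above the mean of the 16 cultures on the log2 CPM scale in controls 2 to 4. It stood at -0.08 in control 1 and between -0.39 and 0.09 in the other 12 cultures. For a gene of 1000 bases, a little shorter than Mmp7, Itln1 and Lyz1, it stood at 0.49, 0.51 and 0.60 in controls 2 to 4 and at -0.06 in control 1.

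For the tests, the trend was fitted again within the 8 libraries of each comparison. With the trend so fitted removed from each library, Lyz1 and Itln1 no longer passed. In MYO5BΔIEC their log2 fold changes were -0.29 (edgeR adjusted p = 0.315) and -0.32 (edgeR adjusted p = 0.185), and in MYO5B(G519R) enteroids -0.49 (edgeR adjusted p = 0.128) and -0.51 (edgeR adjusted p = 0.0573). None of the 9 was then lower, where 13.2% and 13.7% of the genes tested were. All 5 defensins then had values above 0 in both models. In MYO5BΔIEC, Ang4 at 0.77 (edgeR adjusted p = 0.0335) and Defa30 at 0.66 (edgeR adjusted p = 0.0422) passed as higher, where 13.6% of the genes tested did, and in MYO5B(G519R) enteroids 0 of the 9 did, where 13.7% did. The family as 1 feature was at 0.31 (edgeR adjusted p = 0.43) and 0.07 (edgeR adjusted p = 0.868). Most of the trend's genes are longer than the defensins, since 213 of the 13545 are of 420 bases or less, so its value at their length rests on few genes.

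**Figure D3:**
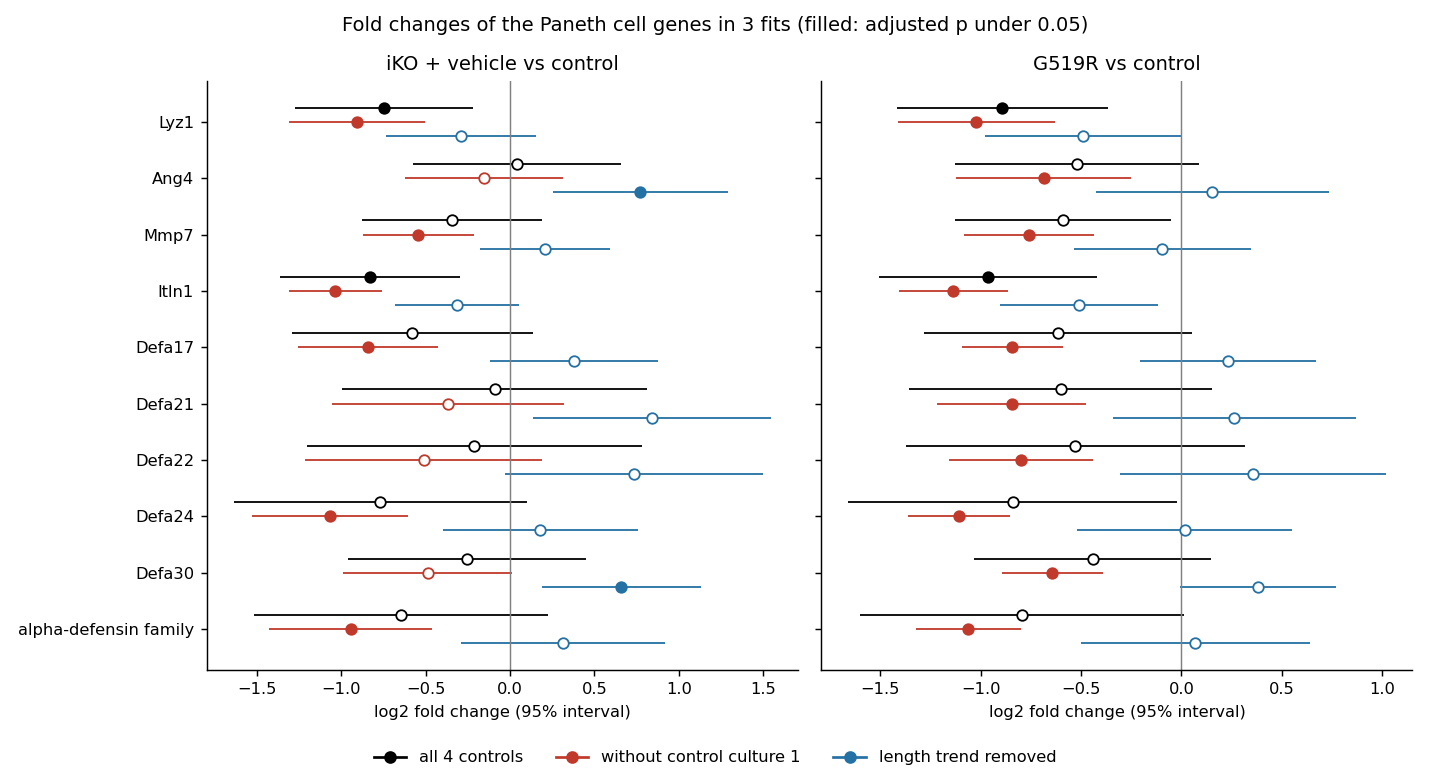
Log2 fold changes of the 9 genes and of the alpha-defensin family in MYO5BΔIEC (left) and MYO5B(G519R) (right) enteroids against control, with 95% intervals, in the fit with all 4 controls, without control culture 1, and with the trend on gene length removed from each library. Filled points have an edgeR adjusted p under 0.05. The family moves from -0.65 to -0.95 without control 1 and to 0.31 with the trend removed in MYO5BΔIEC enteroids.

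**Figure D4:**
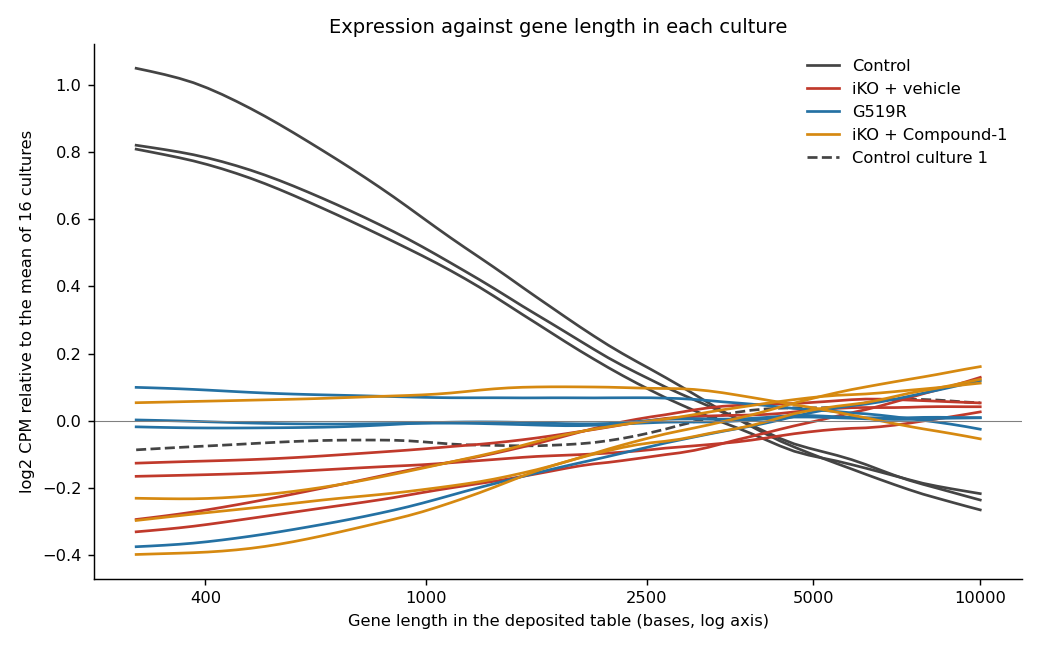
Trend of log2 CPM, relative to the mean of the 16 cultures, on gene length in bases (log axis), 1 line per culture. Controls 2 to 4 rise to between 0.76 and 0.99 at 400 bases, while control culture 1 (dashed) stays with the other groups at -0.08.

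Marker genes of other cell types were read too, as sums in each culture and singly, and not all of them differed between the groups. The summed level of 8 goblet cell markers was 1655 to 2010.3 CPM in control, 2077 to 2519 CPM in MYO5BΔIEC and 2074 to 2524 CPM in MYO5B(G519R) cultures. Singly, 2 of the 8 were called higher in each model (Clca1 and Fcgbp), 1 lower in MYO5BΔIEC (Spink4) and 2 lower in MYO5B(G519R) (Spink4 and Tff3), and the medians of the 8 were -0.18 and -0.0030 on the log2 scale. That of 8 stem cell markers was 2446 to 6431 CPM in control, 1018 to 2179.8 CPM in MYO5BΔIEC and 1378 to 2669 CPM in MYO5B(G519R) cultures. Of these 8, Olfm4 was called lower in both models, at -2.26 and -1.63 on the log2 scale, Rnf43 was called higher in both, and the medians were 0.09 and 0.30. The summed level of 9 enterocyte markers was 3065 CPM in control 1 and 12522 to 15509 CPM in controls 2 to 4, with MYO5BΔIEC cultures at 6127 to 11860 CPM and MYO5B(G519R) cultures at 5663 to 8645 CPM between them. Singly, 3 of the 9 were called higher and 0 lower in MYO5BΔIEC, and 2 higher and 1 lower in MYO5B(G519R). Their medians were 0.69 and 0.16 on the log2 scale. Without control 1, 3 were higher and 2 lower in MYO5BΔIEC, and 2 higher and 4 lower in MYO5B(G519R). The summed level of 6 tuft cell markers was 66.7 CPM in control 1 and 14.6 to 29.1 CPM in the other 15 cultures, and that of 8 enteroendocrine markers was 523 to 1741 CPM over all 16. Of 5 tuft markers tested, 1 was lower in MYO5BΔIEC and 2 in MYO5B(G519R). Their medians were -1.03 and -0.76, and -0.03 and -0.08 without control 1. Of the 8 enteroendocrine markers, 2 were higher in MYO5BΔIEC, and 1 higher and 1 lower in MYO5B(G519R), with medians of 0.24 and -0.18. The 6 fibroblast markers together were at 0 to 0.376 CPM in control, 0.390 to 0.956 CPM in MYO5BΔIEC and 0.296 to 0.871 CPM in MYO5B(G519R) cultures, with Col3a1, Dcn and Lum at 0 in all 16. The 6 myeloid markers together were at 3.86 to 5.45 CPM in control, 6.02 to 11.4 CPM in MYO5BΔIEC and 5.67 to 6.90 CPM in MYO5B(G519R) cultures, both above control, and Adgre1 was at 0 in all 16. Their part in the Paneth cell results was not tested.

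The 2 MYO5B models were compared directly. None of the 9 genes passed the threshold in MYO5B(G519R) against MYO5BΔIEC enteroids, where 0.00557% of 17943 genes did (edgeR), and DESeq2 called 0 of the 9, where it called 0.0223% of all genes. At an unadjusted p under 0.05 there was 1 gene, Ang4, with a log2 fold change of -0.56 (95% interval -1.11 to -0.01, edgeR adjusted p = 0.838). Lyz1 differed by -0.14 (95% interval -0.56 to 0.27), Itln1 by -0.13 (-0.43 to 0.18) and the alpha-defensin family by -0.15 (-0.59 to 0.30). The last 3 intervals include differences of either sign.

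Compound-1 gave no called change in the 9 genes. In treated against vehicle-treated MYO5BΔIEC enteroids edgeR called 0 of the 9, at an unadjusted p under 0.05 there were also 0, and edgeR called 0% of 18037 genes. DESeq2 also called 0 of the 9, where it called 0.505% of the same genes. Lyz1 was at 1484, 1293, 1792 and 1348 CPM with the compound, a log2 fold change of 0.09 (95% interval -0.31 to 0.49). Itln1 was at 853, 1018, 1037 and 749 CPM (-0.11, 95% interval -0.45 to 0.24). The family was at 1267, 1767, 1942 and 1148 CPM (-0.15, 95% interval -0.69 to 0.39). The summed goblet cell markers were at 2192 to 2451 CPM in treated cultures 1 and 2 and at 6175 and 4343 CPM in treated cultures 3 and 4, and their part in these values was not tested. Defa21 was at 58.1, 18.3, 29.6 and 12.8 CPM, and its interval was the widest of the 9, from -1.40 to 0.60.

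Set against the same controls, treated enteroids had 1 of the 9 genes past the threshold, where 13.7% of 17937 genes were called lower. This was Itln1, with a log2 fold change of -0.91 (SE 0.25, quasi-likelihood adjusted p = 0.0226). Lyz1 stood at -0.63 (SE 0.23, quasi-likelihood adjusted p = 0.0638) and the family at -0.77 (SE 0.39, quasi-likelihood adjusted p = 0.158). Without control culture 1, Lyz1, Itln1, Defa17, Defa24 and Defa30 passed as lower, where 19.2% of the genes tested did. Itln1 lost its call without any 1 of 5 other cultures (edgeR adjusted p = 0.0533 to 0.0743).

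Beyond the 9 genes, 25 of the other 40 alpha-defensin rows could be tested. In MYO5BΔIEC against control 1 of the 25 passed, lower, and in MYO5B(G519R) 4 did, all lower, where 13.8% and 13.7% of all genes tested were called lower. These were AY761184, with a log2 fold change of -1.57 (edgeR adjusted p = 0.0336) and -1.83 (edgeR adjusted p = 0.02), and, in MYO5B(G519R), Defa32 at -2.10, Gm15293 at -1.89 and Gm7849 at -1.41 (edgeR adjusted p = 0.0309, 0.0485 and 0.0485). Without control culture 1, 10 and 18 of the 25 passed as lower, where 20.8% and 22.1% of all genes did, and with the length trend removed 0 did in either model.

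Several genes on a list of other Paneth cell products, which also holds the stress-response gene Nupr1, were lower in both models. Of 17 listed products, 14 could be tested, and in MYO5BΔIEC 7 of these were lower and 1 higher, while in MYO5B(G519R) 8 were lower, against 13.8% and 13.7% of all genes called lower and 13.5% and 13.1% called higher. With the length trend removed 2 of the 14 were lower and 1 higher in MYO5BΔIEC, and 5 lower and 1 higher in MYO5B(G519R) enteroids. Mptx2, a mucosal pentraxin, was at 18.9 to 28.5 CPM in control, at 4.11 to 10.6 CPM in MYO5BΔIEC and at 6.15 to 11.9 CPM in MYO5B(G519R) cultures, with no overlap. Its log2 fold changes were -1.76 (SE 0.27, quasi-likelihood adjusted p = 0.00214) and -1.37 (SE 0.23, quasi-likelihood adjusted p = 0.00356). It remained called without control culture 1 and with the length trend removed, where it stood at -1.18 (edgeR adjusted p = 0.00885) and -0.82 (edgeR adjusted p = 0.0497).

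Its paralog Mptx1 was at 3.48 to 17.4 CPM in control and fell by 2.06 on the log2 scale in MYO5BΔIEC (SE 0.55, quasi-likelihood adjusted p = 0.0198) and by 2.72 in MYO5B(G519R) enteroids (SE 0.62, quasi-likelihood adjusted p = 0.0116). Reg3a, a C-type lectin, was at 56.3 CPM in control 1 and at 207 to 379 CPM in controls 2 to 4, and fell by 1.84 (SE 0.53, quasi-likelihood adjusted p = 0.0273) and by 2.41 (SE 0.46, quasi-likelihood adjusted p = 0.00588). Nupr1, a stress-response gene on the list, fell by 1.39 (SE 0.46, quasi-likelihood adjusted p = 0.0466) and by 1.69 (SE 0.40, quasi-likelihood adjusted p = 0.0133), and the first of these was lost without control 1 (edgeR adjusted p = 0.0842). With the length trend removed, Mptx1, Reg3a and Nupr1 stayed called in MYO5B(G519R) and not in MYO5BΔIEC enteroids, where they were at -1.60, -1.12 and -1.31 (edgeR adjusted p = 0.0767, 0.0918 and 0.0638). The remaining genes called, named after their values were seen, were Clps, Rnase4 and Ang, lower in both models, Reg3g, lower in MYO5B(G519R), and Pnliprp2, higher in MYO5BΔIEC enteroids. With the length trend removed Clps (edgeR adjusted p = 0.257 and 0.122) and Ang (edgeR adjusted p = 0.146 and 0.121) were lost in both models and Reg3g in MYO5B(G519R) (edgeR adjusted p = 0.0534). The Ang genes and Rnase4 are near relatives of Ang4, and Ang shares its locus with Rnase4, so reads between them may be uncertain.

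Among 16 genes of Paneth cell specification, 1 was lower and 6 higher in each model, where 13.8% and 13.7% of all genes were called lower and 13.5% and 13.1% higher. With the length trend removed the counts were 2 lower and 4 higher in MYO5BΔIEC and again 1 and 6 in MYO5B(G519R) enteroids. Of the transcription factors, Sox9, which Wnt signaling drives in Paneth and stem cells, rose by 0.63 (SE 0.15, quasi-likelihood adjusted p = 0.011) in MYO5BΔIEC and 0.60 (SE 0.14, quasi-likelihood adjusted p = 0.0137) in MYO5B(G519R) enteroids. Atoh1, the switch to the secretory lineage, stood at -0.43 and -0.32, Gfi1, which acts after it, at -0.60 and -0.62, Spdef at -0.34 and -0.21, and Xbp1, a factor of the secretory apparatus, at -0.23 and -0.22, and none of them passed (edgeR adjusted p = 0.0575 to 0.421). The receptors Ephb2 and Ephb3, which position Paneth cells at the crypt base, rose by 0.77 and 0.72 in MYO5BΔIEC (edgeR adjusted p = 0.0133 and 0.0153) and by 0.86 and 0.84 in MYO5B(G519R) enteroids (edgeR adjusted p = 0.00668 and 0.00505). Erbb3, a receptor of the EGF family, and Tcf7l2, the main TCF factor of the intestine, rose by 0.92 each in MYO5BΔIEC (edgeR adjusted p = 0.00403 and 0.00542) and by 0.72 and 0.71 in MYO5B(G519R) enteroids (edgeR adjusted p = 0.00792 and 0.0151). Cd24a, a surface marker of Paneth cells, was the gene called lower in both, and Ctnnb1 in MYO5BΔIEC and Fzd5 in MYO5B(G519R) enteroids were the remaining ones called higher. With the length trend removed Ephb3 (0.56, edgeR adjusted p = 0.0546) and Ctnnb1 (0.35, edgeR adjusted p = 0.0626) were lost in MYO5BΔIEC enteroids.

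Of the 8 niche signals that Paneth cells send to stem cells, Tgfa, a ligand of the EGF receptor, rose by 1.15 (SE 0.23, quasi-likelihood adjusted p = 0.00542) and by 0.99 (SE 0.23, quasi-likelihood adjusted p = 0.0124), and 7 did not pass in either model. This was 1 of 8 called higher in each model, where 13.5% and 13.1% of all genes tested were. Wnt3 was at 0.37 and 0.29 (edgeR adjusted p = 0.218 and 0.321) and Dll4, a Notch ligand, at -0.08 and 0.02 (edgeR adjusted p = 0.787 and 0.932). Of 16 genes of granules, the endoplasmic reticulum and autophagy 15 could be tested. In MYO5BΔIEC 2 were called lower and 0 higher, and in MYO5B(G519R) enteroids 3 lower and 1 higher. Over all genes tested, 13.8% and 13.7% were called lower and 13.5% and 13.1% higher. Agr2, a disulfide isomerase of secretory cells, fell by 0.96 (SE 0.15, quasi-likelihood adjusted p = 0.00207) and by 0.82 (SE 0.14, quasi-likelihood adjusted p = 0.00352), and Atg5 by 0.58 (SE 0.15, quasi-likelihood adjusted p = 0.0192) and by 0.55 (SE 0.12, quasi-likelihood adjusted p = 0.00973). With the length trend removed 3 were lower and 0 higher in MYO5BΔIEC, and again 3 and 1 in MYO5B(G519R) enteroids. Over all genes, 13.2% and 13.7% were then lower and 13.6% and 13.7% higher. In MYO5BΔIEC enteroids Atg5 was then lost (-0.42, edgeR adjusted p = 0.0574) and Atg4b passed as lower (-0.42, edgeR adjusted p = 0.0463). Without that removal, Hspa5, the chaperone BiP, also fell in MYO5B(G519R) enteroids, by 0.48, and Stxbp2, which binds syntaxins at granule fusion, rose by 0.33 (edgeR adjusted p = 0.031 each). Of 10 other proteases and protease inhibitors 4 could be tested. In MYO5BΔIEC 2 of these were called higher and in MYO5B(G519R) enteroids 3, where 13.5% and 13.1% of all genes were. Mmp15 rose by 2.11 (SE 0.17, quasi-likelihood adjusted p = 0.000614) and 2.01 (SE 0.15, quasi-likelihood adjusted p = 0.000733), Mmp14 by 0.83 and 0.87 (edgeR adjusted p = 0.0209 and 0.0159), and Timp2 in MYO5B(G519R) enteroids by 1.41 (edgeR adjusted p = 0.0125).

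**Figure D5:**
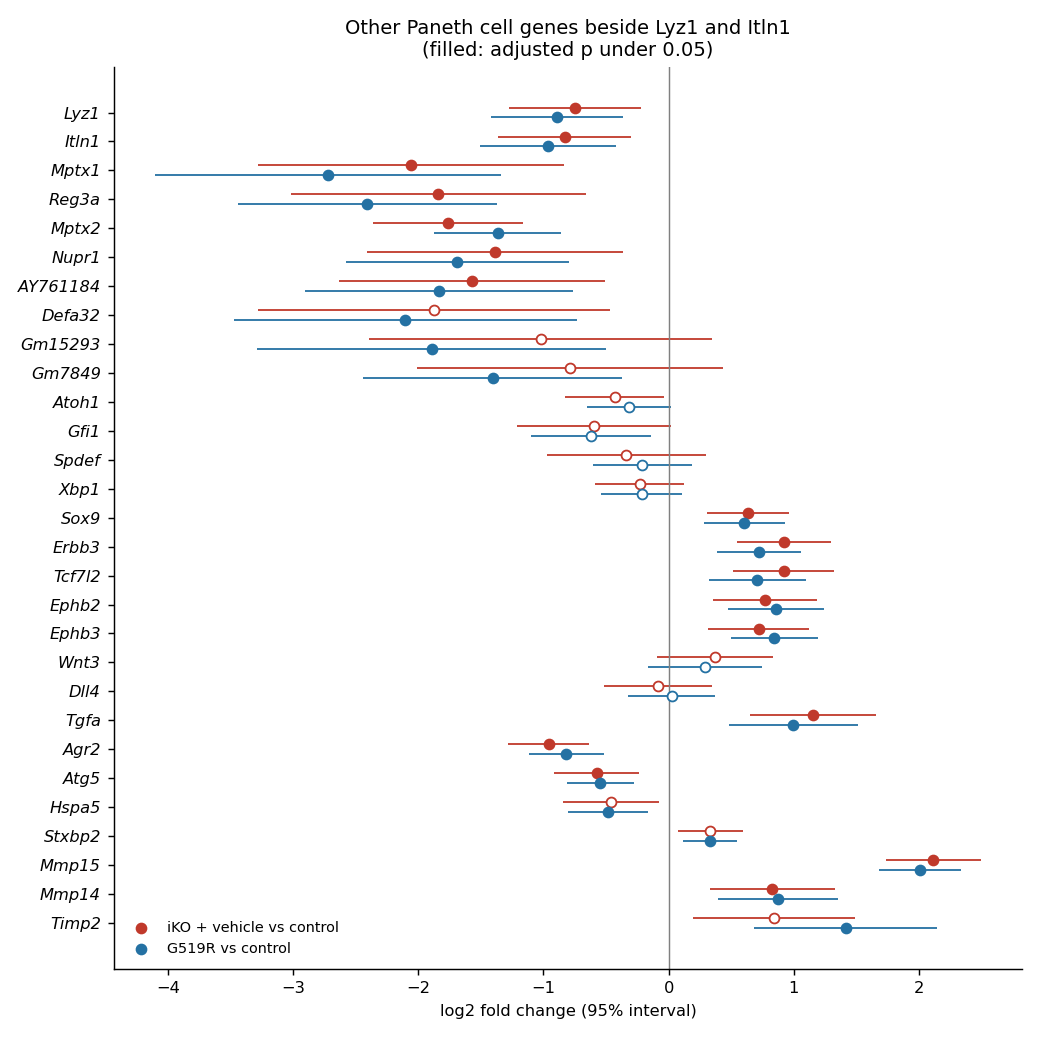
Log2 fold changes with 95% intervals against control of other Paneth cell genes from the text, beside Lyz1 and Itln1, in MYO5BΔIEC (iKO + vehicle) and MYO5B(G519R) enteroids. Clps, Rnase4, Ang, Reg3g, Cd24a, Ctnnb1, Fzd5 and Pnliprp2, the last called higher in MYO5BΔIEC, are among the named genes not drawn. Filled points have an edgeR adjusted p under 0.05. Mptx2 (-1.76 and -1.37), Mptx1, Reg3a and Nupr1 lie to the left of 0, and Sox9, Erbb3, Ephb2 and Ephb3 to the right. Atoh1, Gfi1, Spdef and Xbp1 do not pass.

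Across the 16 cultures, the genes whose log2 CPM followed the alpha-defensin family most closely were D330023K18Rik (Pearson's r = 0.94), Emc9 (0.92), Hagh (0.92), Ifi27l2b (0.90) and Isoc2a (0.89), among 13516 genes with a mean of at least 1 CPM. For Lyz1 they were Crbn (0.91), Hbp1 (0.91), S100g (0.90), Sar1b (0.89) and Usp33 (0.89). None of these 10 is on the lists of Paneth cell genes. The cultures share the 4 groups and the length trend of their libraries, so these values describe the patterns only.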

How the data were processed

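RNA-sequencing of 16 enteroid cultures was analysed. The authors deposited a table of raw counts per gene and a table of FPKM values. The submitters' processing notes name STAR 2.5, TopHat, HTSeq 0.6.1, DESeq2 and GRCm38; the annotation, strand setting and treatment of reads with several matches are not given in the sources used here. Gene lengths in the table served the length trend. The counts were fitted with edgeR 4.0.16 in R 4.3.3 (TMM, quasi-likelihood test, a minimum of 10 counts in 2 of the 8 libraries), for 2 groups at a time, with Benjamini-Hochberg adjustment over all genes tested. The family was fitted after its rows were added. FPKM values gave the order of levels and were fitted with limma 3.58.1 on log2(FPKM + 1). DESeq2 1.42.0, other filters, the length trend (lowess, span 0.3), a replicate block and leaving out each culture were alternatives. On data simulated for MYO5BΔIEC against control, edgeR called 53 of 100 genes changed 2-fold and 95 of 100 changed 4-fold, among 17415, with 14 false calls. In the measured data 4910 of 17951 genes were called, far more than were changed in the simulation, so these rates need not hold there. A count of 3 corresponded to 0.0748 to 0.108 CPM, for counting error only. The 9 genes and the lists were chosen with earlier results of these data known. All 9 were named throughout, with at most 4 called genes of the largest change from each other list of Paneth cell genes, and Lyz2, Mptx1, Mptx2, Atoh1, Gfi1, Spdef, Sox9, Xbp1, Wnt3 and Dll4 whatever their result. No sample was left out of the tests, and no pair of libraries held identical counts.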

Additional observations from a re-analysis of the deposited data

Results flagged for a closer look

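In 48 groups of 4 cultures (9 genes and 3 sums in 4 groups), 7 had 1 culture set apart from the other 3 by Dixon's test, where chance alone gives about 1 in 20, and the sums share counts with the genes. Among the controls, culture 1 was apart for Itln1, at 936 CPM against 1925 to 2026, and for Defa21, at 15.2 CPM against 47.8 to 52.0. MYO5BΔIEC culture 4 was apart for Defa21, at 15.0 CPM against 44.9 to 46.6. MYO5B(G519R) culture 3 was apart for Lyz1, at 1635 CPM against 1039 to 1139.7, and for the sum of all 9 genes, at 4422 CPM against 3468 to 3584. MYO5B(G519R) culture 4 was apart for the alpha-defensin family, at 1338 CPM against 1541 to 1578, and for the 5 named defensins together, at 1149.8 CPM against 1276 to 1302. The cause of these gaps was not tested.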

How the results depend on the processing

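The number of the 9 genes called was 2 in MYO5BΔIEC against control. It was 1 with the replicate block (Lyz1), 0 with limma on either FPKM pseudocount, and 2, both higher, with the length trend removed. In MYO5B(G519R) it was 2, and 0 with limma on either pseudocount or with the length trend removed. In Compound-1-treated enteroids against control it was 1, and 2 with DESeq2 or with all 4 groups in 1 fit, and 0 with limma on either pseudocount or with the length trend removed. Leaving out 1 culture at a time moved these 3 counts between 0 and 5, 0 and 9, and 0 and 5. Of 53 other Paneth cell genes tested, 10 were called lower and 8 higher in MYO5BΔIEC, and 12 lower and 8 higher in MYO5B(G519R) enteroids. Over all genes, 13.8% and 13.7% were called lower and 13.5% and 13.1% higher. Without control culture 1, 13 were lower and 12 higher in MYO5BΔIEC, and 18 lower and 13 higher in MYO5B(G519R) enteroids. Over all genes, 20.8% and 22.1% were then called lower, and 3767 of 17783 and 4244 of 17647 higher. The counts of 18 and 20 with all cultures moved between 10 and 25 and between 12 and 31 without 1 culture. Calls over all genes tested ranged from 2963 to 7474 and from 2880 to 8146 in the same fits. The family as 1 feature ranged from -0.95 to -0.46 and from -1.06 to -0.61 in these fits. Against vehicle-treated MYO5BΔIEC enteroids, the family ranged from -0.32 to 0.032 with Compound-1 and from -0.31 to 0.036 in MYO5B(G519R), and 0 of the 9 genes were called in every fit.

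Removing the length trend turned the direction of most fold changes against control. In MYO5BΔIEC enteroids Mmp7 stood at 0.21, Defa17 at 0.38, Defa21 at 0.84, Defa22 at 0.73, Defa24 at 0.18, Defa30 at 0.66 and the family at 0.31. In MYO5B(G519R) enteroids Ang4 stood at 0.15, Defa17 at 0.23, Defa21 at 0.26, Defa22 at 0.36, Defa24 at 0.016, Defa30 at 0.38 and the family at 0.070. With Compound-1 Ang4 stood at 0.57, Mmp7 at 0.36, Defa17 at 0.47, Defa21 at 0.55, Defa22 at 0.58, Defa24 at 0.20, Defa30 at 0.43 and the family at 0.24.

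Leaving out 1 culture also turned the direction of some values that did not pass with all cultures. In MYO5BΔIEC against control, Ang4 ranged from -0.16 to 0.19, Defa21 from -0.37 to 0.18 and Defa22 from -0.51 to 0.056. With Compound-1 against vehicle, Lyz1 ranged from -0.0078 to 0.20, Mmp7 from -0.022 to 0.19, Defa17 from -0.11 to 0.21 and Defa24 from -0.21 to 0.16. In MYO5B(G519R) against MYO5BΔIEC, Defa17 ranged from -0.18 to 0.14 and Defa24 from -0.19 to 0.13. The cause of these shifts was not tested.

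Deviations of cultures with the same number correlated between -0.23 and 0.56, not above 0.1 for every number in any comparison. In no comparison did every culture follow its own number best, so the numbers were not taken as pairs. The closest was MYO5B(G519R) against MYO5BΔIEC, at 0.15, 0.06, 0.50 and 0.56, where cultures 1, 3 and 4 followed their own number best. There the replicate block brought 2532 genes to an unadjusted p under 0.05, against 772 without it. The lowest edgeR adjusted p of the 9 genes was then 0.122 (Ang4), and 0 of the 9 were called. With the replicate block, 1 of the 9 genes was called in MYO5BΔIEC and 2 in MYO5B(G519R) against control, and the family stood at -0.53 and -0.63. With 4 cultures a group, a doubling was often missed in simulated data, in which far fewer genes changed than were called here. That rate need not hold for these data, and a gene that did not pass is not shown to be unchanged.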
